A study of Mus musculus with 6 samples.

Results

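The Kcnj side of the Sox9/Kcnj locus on mouse chromosome 11 was examined by Capture Hi-C, which ligates DNA ends lying close together in the nucleus, enriches a chosen region with probes and counts each ligated pair as a contact. The members were all pairs of 10 kb bins with both bins between 110200001 and 111350000 (mm9) and at least 2 bins apart. This gave 6441 pairs of 115 bins, of 171405 such pairs in the whole map. The interval was selected on the insulation of these same maps, so that it ends near low points of the contacts across a bin, and that property is a description here. In WT, the mean contacts across the first bin inside its centromeric end, measured in a 500 kb diamond on a log2 scale over the mean of the map, scored -1.29 and the first bin outside scored -1.34. At the telomeric end the last bin inside scored -1.22 and the first bin outside scored -1.27, and the WT boundary lay further on at 111380001, with -1.46.

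Limb buds of embryos aged E12.5 gave 1 library per genotype, 6 in all. In deltaBor the domain boundary is deleted, and the bin from 111390001 to 111400000 was lost. Dup-LdeltaBor combines that loss with the duplication of Dup-L, which was found here at 110960001 to 112520000. The duplication of Dup-S was found at 111750001 to 112170000, and that of Dup-C at 110770001 to 112520000. WT embryos served as the control. The alterations of deltaBor and Dup-S therefore lie outside the domain. The duplication covers 33.9% of it in Dup-L and Dup-LdeltaBor (39 bins) and 50.4% in Dup-C (58 bins), so raw counts there contain copy number. How many animals a library pools, and whether the mutants were homozygous, was not given in the sources used here.

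Mammalian chromosomes fold into domains within which contacts are frequent, separated by boundaries that often bind the protein CTCF and retain the ring-shaped cohesin complex. A cohesin ring is thought to extrude a loop until it meets such a site, and loops between sites appear in a contact map as bright corners. The domain studied here holds Kcnj2 and Kcnj16, which encode inwardly rectifying potassium channels, and in the gene table they follow Map2k6, a kinase that activates p38. Beyond the boundary lies Sox9, whose product switches on genes for making cartilage and testis. In the published description of these mice, Kcnj2 and Kcnj16 lie in the duplication of Dup-C and Kcnj2 does not lie in that of Dup-L.

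The promoter of Kcnj2 is shown because the domain is named for this gene. It is the RefSeq sequence of GRCm38.p6, chr11:111065914-111066213, plus strand, and it was not placed on the mm9 map. Capitals mark the letters AGNNGGC, part of the binding motif of CTCF, searched on both strands. There were 2 adjacent matches that did not overlap.
Kcnj2: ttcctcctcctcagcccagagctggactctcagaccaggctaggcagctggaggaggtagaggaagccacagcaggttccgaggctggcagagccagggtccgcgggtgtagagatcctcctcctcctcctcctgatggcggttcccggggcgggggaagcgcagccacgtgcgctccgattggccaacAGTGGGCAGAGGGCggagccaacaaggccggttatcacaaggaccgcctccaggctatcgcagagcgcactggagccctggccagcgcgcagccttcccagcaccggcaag
Of the 8 promoters listed for Map2k6, Kcnj16 and Kcnj2, 6 held a match. So did 59.8% of all 32851 promoters of the same length, so matches were common.

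The domain held 571929 contacts in deltaBor, 801762 in Dup-LdeltaBor, 779789 in Dup-L, 500402 in Dup-S, 408471 in Dup-C and 685029 in WT. These were 13.9%, 11.9%, 13.0%, 13.7%, 14.6% and 13.8% of the contacts at least 2 bins apart, from 3.76% of the pairs. The median pair had 59, 77, 82, 55, 39 and 74 contacts in the same order, and 9, 4, 4, 9, 22 and 3 pairs had none. In 5 bins WT coverage was under 0.5 of the domain's median bin, and it was 6.74% of it in the lowest, 110600001. With a single library per genotype no test could be made, and values carry no p. Ranges in parentheses after a fold are 95% binomial intervals (Clopper-Pearson, exact). For ratios across a minimum or the step, the expected number entered as an effective count, so those ranges are approximate. All these ranges cover only the error of counting and treat each contact as an independent event. They are too narrow if amplified duplicates were left in, which the sources do not state.

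The domain was not uniform. With KR-balanced values, in which each bin has the same sum over the map, it fell into 3 stretches in every library. Contacts across a bin were measured as the mean in a 100 kb diamond, log2 over the mean of the domain's scored bins. A minimum was called at a prominence of at least 0.2 log2, and exactly 2 were found in each library. The first lay at 110390001 in all 6. The second lay at 110920001 in deltaBor, Dup-S, Dup-C and WT and 30 kb further on, at 110950001, in Dup-L and Dup-LdeltaBor, next to the start of their duplicated segment at 110960001. For counting, the second minimum, also called the step, was taken at 110940001, a low of the WT raw 100 kb score with a prominence of only 0.11. It tied with 110920001 as the low nearest to 110930001 and was taken as the deeper of both, at -0.17 against -0.16. Only the bins 110390001 and 110940001 were left out. The second KR minima themselves were kept, 110920001 in the middle stretch and 110950001 in the telomeric stretch. This divides the domain into a centromeric stretch of 190 kb (110200001 to 110390000), a middle stretch of 540 kb (110400001 to 110940000) and a telomeric stretch of 400 kb (110950001 to 111350000).

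**Figure D1:**
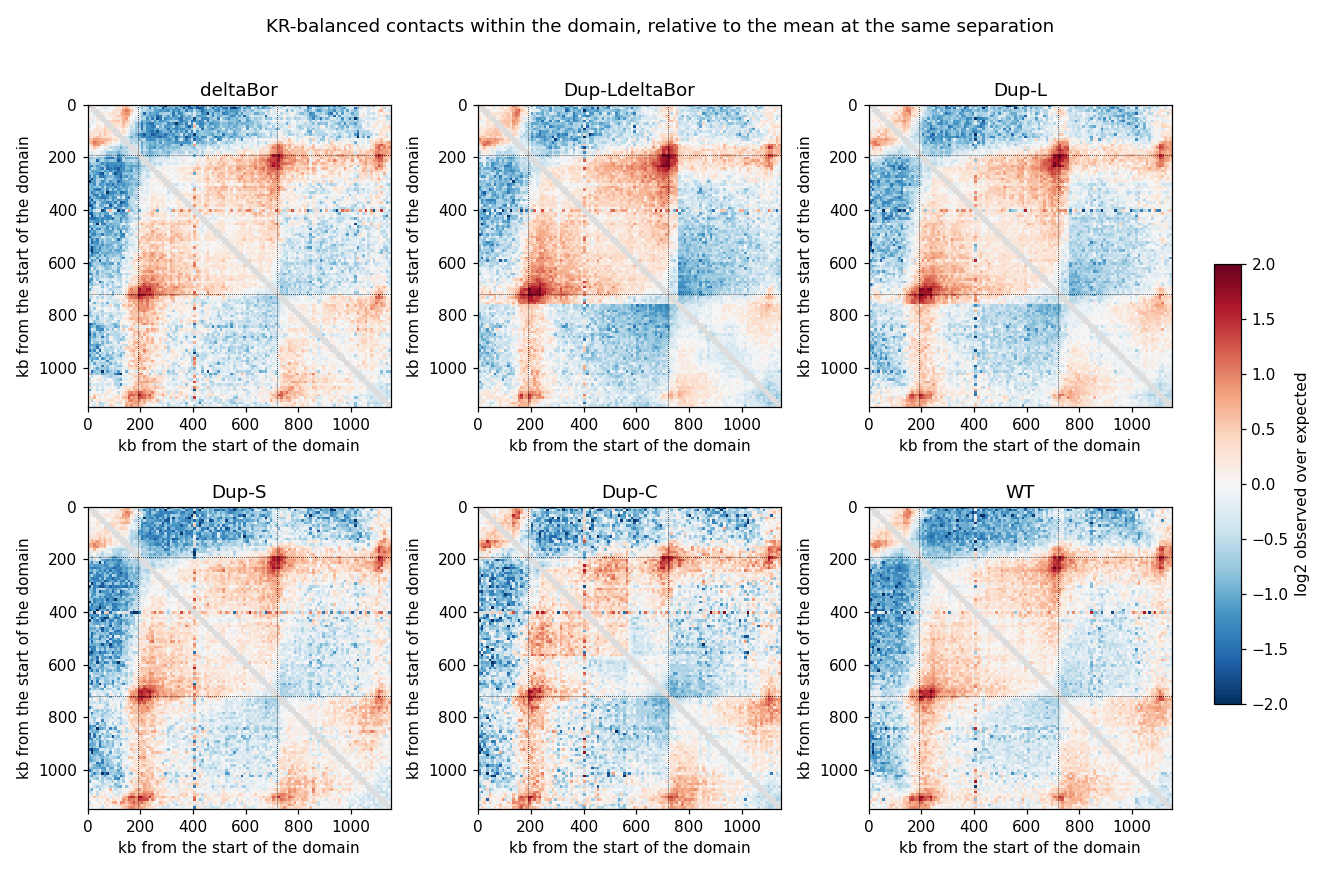
Heat maps of KR-balanced contacts between 10 kb bins for the 6 libraries, as log2 of observed over the mean at the same separation, with both axes in kb from the start of the domain. Dotted lines mark the minima at 190 and 720 kb, and pairs under 2 bins apart are grey. The centromeric stretch is pale or blue with the middle stretch in every library, and red spots stand where the dotted lines and the far end of the domain meet.

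The first minimum was the deeper in 5 of the 6 libraries. Its KR score was -0.95 in deltaBor, -0.74 in Dup-LdeltaBor, -0.82 in Dup-L, -0.93 in Dup-S, -0.75 in Dup-C and -0.94 in WT. The second minimum scored -0.53 in deltaBor, -0.87 in Dup-LdeltaBor, -0.70 in Dup-L, -0.48 in Dup-S, -0.74 in Dup-C and -0.51 in WT. In Dup-LdeltaBor the second minimum was thus the deeper. A shallower KR low of Dup-C stood at 110770001, the first bin of its duplicated segment, with a score of -0.26 and a prominence of 0.18, just under the threshold. A 200 kb diamond, which can be scored within the domain only from 110400001 on, gave 1 minimum in each library, at the same bins as the second minimum above, with KR scores between -0.81 (Dup-LdeltaBor) and -0.44 (Dup-S) and -0.45 in WT.

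Raw counts gave a less clear picture near the step. The deepest raw minimum of the 100 kb diamond was 110390001 in all 6 libraries, with -0.84 in deltaBor, -1.42 in Dup-LdeltaBor, -1.17 in Dup-L, -0.87 in Dup-S, -1.56 in Dup-C and -0.77 in WT. In every library 5 raw minima were called. In WT the others were 110560001, 110640001, 110970001 and 111140001, at -0.07 to -0.27, and none of these 4 was called in the KR map of WT. With the 200 kb diamond the only raw minimum called was 110920001 in all 6 libraries, with -0.36 in deltaBor, -0.46 in Dup-LdeltaBor, -0.38 in Dup-L, -0.30 in Dup-S, 0.04 in Dup-C and -0.35 in WT.

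**Figure D2:**
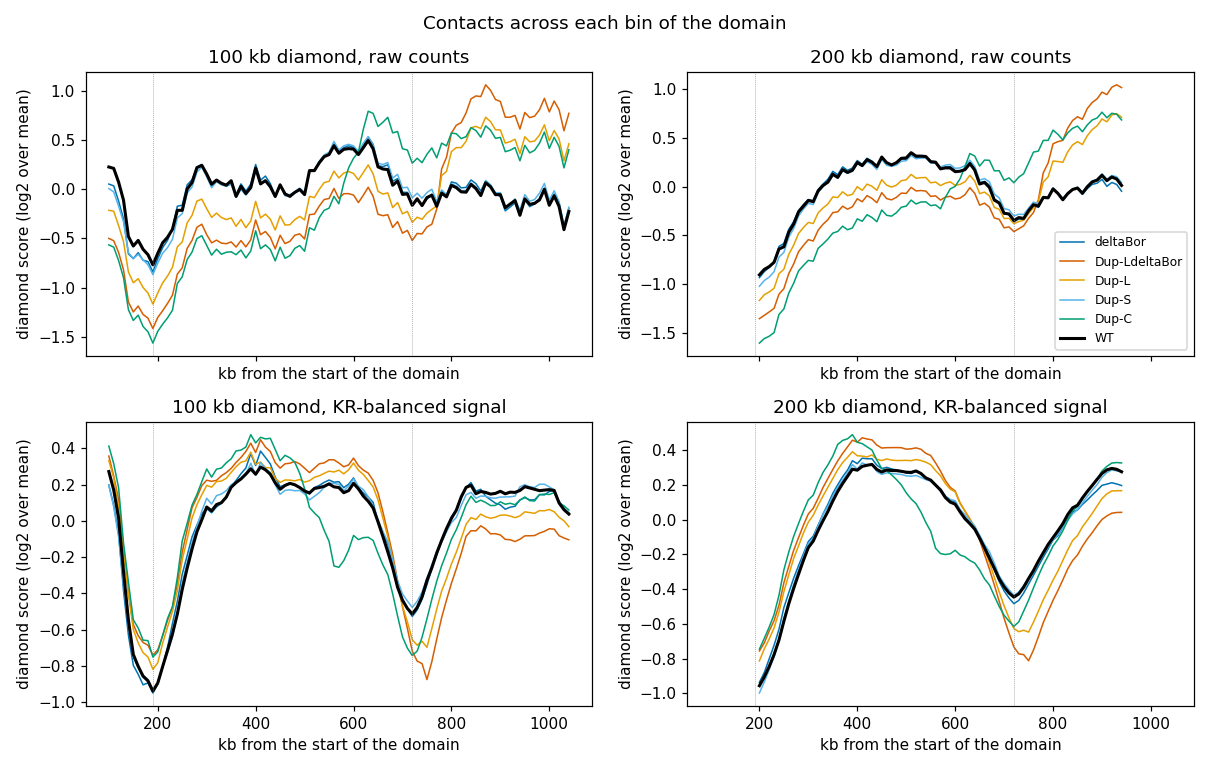
Diamond scores (log2 of the mean contacts across each bin over the mean of the scored bins) along the domain, in kb from its start, for 100 and 200 kb diamonds with raw and KR-balanced values. Lines are the 6 libraries, WT in black, and dotted lines stand at 190 and 720 kb. The lines of deltaBor, Dup-S and WT nearly coincide, and raw lines of Dup-L, Dup-LdeltaBor and Dup-C climb near the start of their duplicated segments.

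The direction of contacts also changed at the step. For each bin, contacts with the 200 kb on its telomeric side were set over those with the 200 kb on its centromeric side, on a log2 scale. At 110920001 raw contacts leaned to the centromeric side in every library, with -0.26 in deltaBor, -0.11 in Dup-LdeltaBor, -0.28 in Dup-L, -0.32 in Dup-S, -0.21 in Dup-C and -0.25 in WT. At the next bin, 110930001, they leaned to the telomeric side in every library, with 0.21, 0.37, 0.32, 0.16, 0.34 and 0.15 in the same order. The sign changed between the same bins in every KR map but that of Dup-LdeltaBor, and WT had -0.07 and 0.39. Dup-L had a KR value of only 0.10 at 110930001 and stayed between -0.04 and 0.10 up to 110950001. In Dup-LdeltaBor the KR value was -0.09 at 110930001 and -0.22 at 110950001, and turned to 0.79 at 110960001, the first duplicated bin. A raw change of sign was not particular to the step. Raw contacts also turned to the telomeric side in every library between 110610001 and 110620001, in WT from -0.01 to 0.06, and no minimum was called there. KR contacts at 110620001 leaned to the centromeric side in every library, with -0.14 in WT.

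The first minimum separated its flanks more than the second did. Contacts joining the centromeric to the middle stretch were set over the number expected from contacts of the same separation within those stretches. Separations with under 10 pairs within the stretches were left out, here and in the ratios across the step. These are the longest ones, so in WT 33144 of the 51812 joining contacts entered. The ratio was 0.383 (0.378 to 0.388) in deltaBor, 0.385 (0.380 to 0.390) in Dup-LdeltaBor, 0.390 (0.385 to 0.395) in Dup-L, 0.369 (0.364 to 0.374) in Dup-S, 0.342 (0.336 to 0.349) in Dup-C and 0.386 (0.381 to 0.391) in WT. All 6 libraries lay between 0.342 and 0.390, and the KR values were 0.426, 0.435, 0.436, 0.412, 0.521 and 0.417. Only in Dup-C does the duplication enter the middle stretch, where its raw counts contain the extra copy.

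Across the second minimum the same ratio for the middle with the telomeric stretch was 0.595 (0.589 to 0.602) in deltaBor, 0.575 (0.570 to 0.580) in Dup-LdeltaBor, 0.600 (0.594 to 0.605) in Dup-L, 0.626 (0.619 to 0.633) in Dup-S, 0.851 (0.840 to 0.861) in Dup-C and 0.609 (0.603 to 0.615) in WT. Dup-C stood apart in raw counts, but its KR value of 0.617 lay beside 0.616 in deltaBor, 0.638 in Dup-S and 0.642 in WT. The KR values of Dup-L and Dup-LdeltaBor were lower, at 0.512 and 0.455. In WT 72354 of the 147385 contacts joining the middle to the telomeric stretch entered, so the ratio does not cover the longest separations. When everything on the centromeric side of the step was pooled, so that contacts far across the first minimum entered the expected number, the ratio came closer to 1. It was 0.819 (0.811 to 0.826) in deltaBor, 0.885 (0.879 to 0.892) in Dup-LdeltaBor, 0.891 (0.884 to 0.898) in Dup-L, 0.886 (0.878 to 0.894) in Dup-S, 1.11 (1.10 to 1.12) in Dup-C and 0.857 (0.851 to 0.864) in WT. The value of Dup-C turned below 1 with KR values, at 0.852.

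The stretches differed in how full they were. Relative to the domain's mean at the same separation, KR contacts of the middle stretch with itself were 1.16 in deltaBor, 1.27 in Dup-LdeltaBor, 1.22 in Dup-L, 1.15 in Dup-S, 1.13 in Dup-C and 1.14 in WT. The telomeric stretch with itself had 1.06, 0.919, 0.992, 1.08, 1.05 and 1.09 in the same order, and the centromeric stretch with itself 1.06, 1.19, 1.15, 1.08, 1.198 and 1.11. The middle stretch was thus the fullest in every library but Dup-C, where the centromeric stretch was. The centromeric with the middle stretch was the emptiest combination in every library, at 0.619, 0.729, 0.683, 0.586, 0.673 and 0.589. The middle with the telomeric stretch, across the step, had 0.926, 0.779, 0.846, 0.964, 0.903 and 0.973. The mean used here includes the pairs across the step, unlike the expected number of the ratios above. The centromeric with the telomeric stretch, which lie further apart, had 0.922, 0.938, 0.909, 0.888, 0.923 and 0.856. At the longest separations every pair of the domain joins the centromeric to the telomeric stretch, so observed and mean are equal there by construction. This pulls the value of that combination toward the mean. The centromeric stretch had a higher value with the far stretch than with its neighbour in all 6 libraries. The part of the measure in that difference was not tested.

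Contacts thinned with separation in 2 phases. In WT the mean per pair was 605 at 20 kb, 148 at 100 kb, 92.7 at 200 kb, 70.0 at 500 kb and 45.2 at 1000 kb. The slope of log10 mean contacts on log10 separation from 20 to 200 kb was -0.86 in deltaBor, -0.81 in Dup-LdeltaBor, -0.81 in Dup-L, -0.80 in Dup-S, -0.84 in Dup-C and -0.83 in WT. From 200 to 1000 kb the slopes were flatter, at -0.39, -0.48, -0.39, -0.35, -0.55 and -0.35 in the same order. The counting error (SE) was largest for the long-range slope of Dup-C, at 0.00551. In WT a window of the same length on the telomeric side of the boundary, 111400001 to 112550000, had -0.81 and -0.54, so the domain's decay was the flatter one only at long range. In Dup-L, Dup-LdeltaBor and Dup-C both intervals contain duplicated bins. The window had a long-range slope of -0.46 in Dup-L, steeper than the domain, and of -0.44 in Dup-LdeltaBor and -0.50 in Dup-C, flatter than the domain. With KR values the window of Dup-C was the steeper one, at -0.44 against -0.39 in the domain.

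The decline was interrupted at about 900 kb. At a separation of 910 kb the mean per pair was 55.3 contacts in deltaBor, 68.9 in Dup-LdeltaBor, 79.8 in Dup-L, 51.5 in Dup-S, 34.1 in Dup-C and 72.2 in WT. At 800 kb, where bins lie closer, it was lower in every library, with 42.4, 58.3, 60.0, 39.4, 26.2 and 54.9 in that order. KR values in WT were 73.7 at 910 kb and 59.8 at 800 kb. Few pairs lie this far apart, 25 at 900 kb against 113 at 20 kb, and all of them join the ends of the domain. The bins compared thus change with separation, and the part of this in the rise was not tested.

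**Figure D3:**
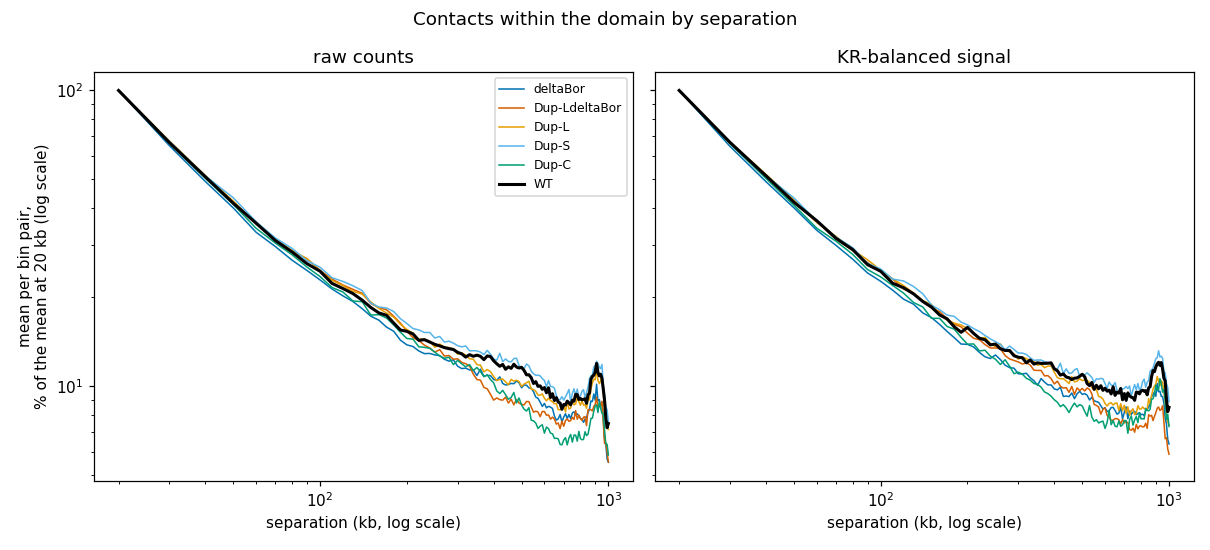
Mean contacts per bin pair at each separation (log axes), as percent of the mean at 20 kb, for raw counts and KR-balanced values of the 6 libraries, WT in black. The lines run together up to about 200 kb, spread beyond it with Dup-C among the lowest, and all show a bump near 900 kb.

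A pair of bins about that far apart stood out as a focal contact, and its part in the rise was not tested. A focal score was the observed over expected value of 3 by 3 bins over that of the surrounding ring of 7 by 7 bins. Among the 5 highest KR scores in WT, 2 joined the bins 110400001 and 110920001 to 111300001. These bins are called anchors 1, 2 and 3, were singled out after their values were seen, and lie beside the first minimum, at the second minimum and 50 kb from the telomeric end. Every pair of them was in contact above the mean for its separation in all 6 libraries.

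Anchor 1 with anchor 3, 900 kb apart, had 1142 contacts in its 3 by 3 bins in deltaBor, 1287 in Dup-LdeltaBor, 1580 in Dup-L, 1158 in Dup-S, 694 in Dup-C and 1689 in WT. Relative to the mean at that separation, KR values were 2.37, 2.11, 2.28, 2.50, 2.40 and 2.60. By KR value the centre pair ranked 1 of 25 pairs at its separation in all libraries but deltaBor, where it ranked 2. After scaling on contacts outside the widest duplication, the fold over WT was 0.837 (0.776 to 0.903) in deltaBor and 0.860 (0.799 to 0.925) in Dup-LdeltaBor. It was 0.997 (0.930 to 1.07) in Dup-L, 1.03 (0.958 to 1.11) in Dup-S and 1.02 (0.935 to 1.12) in Dup-C. On this scaling both libraries without the boundary were below the other mutants. The pair was chosen for its high score in WT, which favours folds below 1, so the intervals do not show a loss. Anchor 3 is duplicated in Dup-L, Dup-LdeltaBor and Dup-C, and its part in these folds was not tested. Scaling to the library total multiplies all folds of a library by 1 factor. A direction over WT, and the order of the mutants, therefore hold only for the scaling named. By KR values over the mean, deltaBor lay above Dup-L.

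Anchor 2 with anchor 3, 380 kb apart, had 1113 contacts in deltaBor, 1400 in Dup-LdeltaBor, 1586 in Dup-L, 1109 in Dup-S, 1261 in Dup-C and 1580 in WT. KR values over the mean were 1.91, 1.43, 1.64, 1.98, 2.06 and 2.12. The fold over WT was 1.99 (1.84 to 2.14) in Dup-C, where both bins are duplicated, and 0.872 (0.807 to 0.942) in deltaBor, where neither is. In Dup-L and Dup-LdeltaBor only anchor 3 is duplicated, and the folds were 1.07 (0.997 to 1.15) and 1.00 (0.930 to 1.08). The centre pair ranked 1 of 77 in every library but Dup-LdeltaBor, where it ranked 14.

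Anchor 1 with anchor 2, 520 kb apart, was not among the 5 highest focal scores but by KR value had the most contacts for its separation of the 3, in every library. It had 1849 contacts in deltaBor, 1779 in Dup-LdeltaBor, 2115 in Dup-L, 1599 in Dup-S, 923 in Dup-C and 2184 in WT. KR values over the mean were 2.93, 3.56, 3.40, 2.89, 2.75 and 2.83, and its centre pair ranked 1 of 63 in all 6 libraries. The fold over WT was 1.05 (0.985 to 1.12) in deltaBor, 0.919 (0.863 to 0.979) in Dup-LdeltaBor, 1.03 (0.972 to 1.10) in Dup-L, 1.10 (1.03 to 1.18) in Dup-S and 1.05 (0.973 to 1.14) in Dup-C. Scaled outside the widest duplication, this contact between the corners of the middle stretch lay within 0.919 to 1.10 of WT in all 5 mutants. The interval of Dup-LdeltaBor lay below 1, and these folds change with the scaling.

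**Figure D4:**
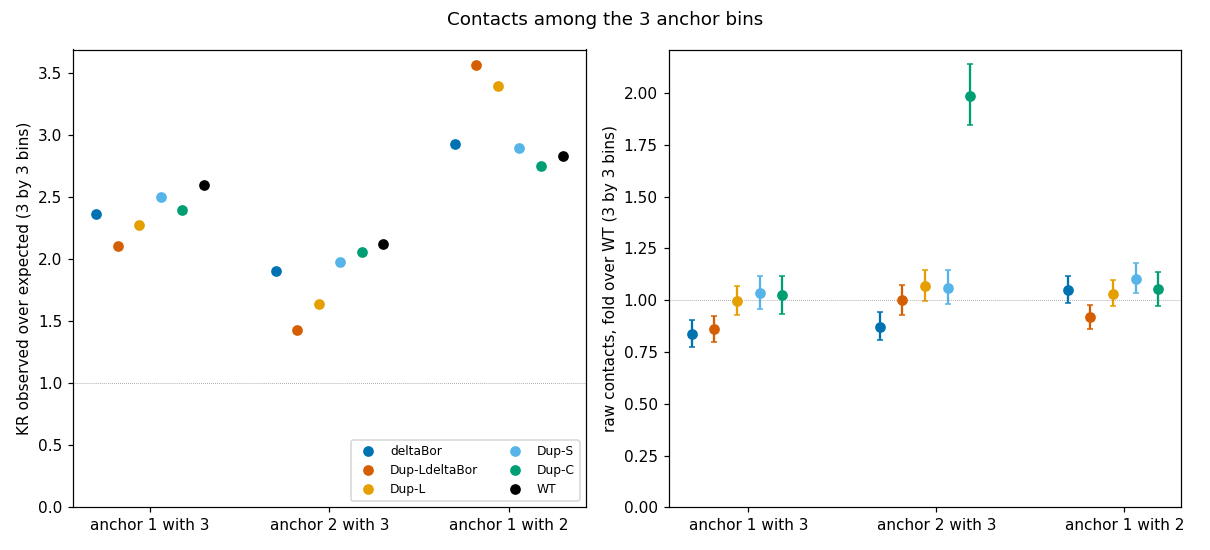
Contacts among the 3 anchor bins (3 by 3 bins each) by library. The left panel gives KR-balanced values over the mean at the same separation, and the right panel gives raw counts as fold over WT with exact 95% intervals for counting error. Anchor 1 with 3 is below 1 in deltaBor (0.837) and Dup-LdeltaBor (0.860), and anchor 2 with 3 is at 1.99 in Dup-C.

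The other focal contacts were less secure. The pair 110610001 with 111030001, which touches 2 bins of low coverage, scored 0.902 to 1.03 in the mutants and 1.45, the highest KR score, in WT. A short one, 110230001 with 110340001 (110 kb apart), scored 1.39 in deltaBor, 1.37 in Dup-LdeltaBor, 1.30 in Dup-L, 1.33 in Dup-S, 1.57 in Dup-C and 1.38 in WT and lies wholly in the centromeric stretch. The contact of 110430001 with 110910001, beside that of anchors 1 and 2, scored 1.19 to 1.30 in the mutants and 1.40 in WT. With raw counts the 5 highest scores in WT, 1.93 to 2.09, all used 111100001 or 110570001, and all 5 passed a score of 1.2 in every mutant. Their KR scores in WT were only 0.987 to 1.11, and the part of bin coverage in the raw scores was not tested. They were 111020001, 110810001 and 110570001 with 111100001, 111100001 with 111240001, and 110570001 with 111290001.

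Single bins differed in how much they took part. By its mean raw observed over expected, the bin 110920001, anchor 2, ranked 1 of 115 in deltaBor (1.80), in Dup-S (1.73) and in WT (1.74). It ranked 2 in Dup-C (1.91), 6 in Dup-L (1.61) and 16 in Dup-LdeltaBor (1.46). In WT the coverage of anchor 2 was 149% of that of the domain's median bin. The part of coverage in these raw values was not tested. With KR values anchor 3, 111300001, ranked 1 in Dup-S (1.36) and in WT (1.33). It ranked 4 in Dup-C (1.30), 6 in deltaBor (1.25), 13 in Dup-L (1.19) and 22 in Dup-LdeltaBor (1.12). The lowest KR bin in WT, 110250001 in the centromeric stretch, had 0.667 to 0.793 in the mutants and 0.665 in WT.

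The mutants were then compared with WT by blocks of 50 kb by 50 kb, 276 in the domain, as fold after scaling on contacts outside the widest duplication. In deltaBor no block of the domain was past 1.5-fold in either direction. Over the whole map 6.93% of blocks were higher and 2.10% lower. The median block fold was 1.02 in the domain and 1.03 over the map. The 3 lowest blocks all involved the last 50 kb of the domain, 111300001 to 111350000. With 110400001 to 110450000 the fold was 0.740 (0.697 to 0.785), from 1792 contacts in deltaBor against 3000 in WT. With 110600001 to 110650000 it was 0.799 (0.715 to 0.893), and with 110350001 to 110400000 it was 0.804 (0.762 to 0.848). KR values gave 0.707, 0.740 and 0.754. The highest blocks, at 1.17 to 1.22, were 110600001 to 110650000 and 110750001 to 110800000 with themselves and 110350001 to 110400000 with 111050001 to 111100000.

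This last 50 kb was therefore set, after these values were seen, beside the rest of the telomeric stretch (110950001 to 111300000). Contacts of the last 50 kb with the centromeric and middle stretches had a fold over WT of 0.825 (0.809 to 0.841) in deltaBor, and those of the rest had 0.997 (0.990 to 1.00). The fold of the last 50 kb was 1.01 in Dup-LdeltaBor, 1.12 in Dup-L, 1.11 in Dup-S and 1.42 in Dup-C. Its KR fold was 0.771 in deltaBor, 0.583 in Dup-LdeltaBor, 0.780 in Dup-L, 1.02 in Dup-S and 0.794 in Dup-C. A KR fold below WT was thus not particular to the libraries without the boundary. The quotient of both folds, which no scaling between raw libraries affects, was 0.827 in deltaBor and 0.820 in Dup-LdeltaBor. It was 0.945 in Dup-L, 0.974 in Dup-S and 0.939 in Dup-C. KR values gave 0.845 in deltaBor and 0.826 in Dup-LdeltaBor, and 0.946 in Dup-L, 0.998 in Dup-S and 0.970 in Dup-C. Within the Dup-L background the same quotient for Dup-LdeltaBor over Dup-L was 0.868, and 0.873 with KR values. In these quotients over WT the 2 libraries without the boundary did not overlap the 3 that keep it. This place was chosen for its low values in deltaBor, and all mutants were set over the same WT library. The quotients are therefore a description. How often other 50 kb parts of the domain separate the libraries in this way was not tested.

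**Figure D5:**
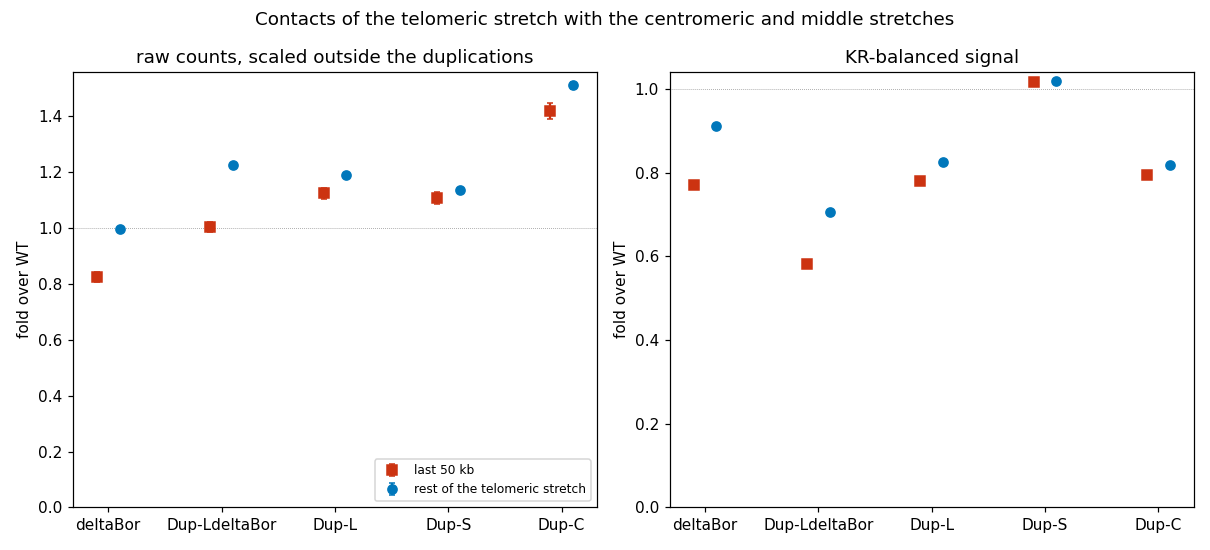
Fold over WT of contacts with the centromeric and middle stretches, for the last 50 kb of the domain (squares) and the rest of the telomeric stretch (circles), in the 5 mutants. Bars on raw counts are exact 95% intervals for counting error, often smaller than the symbols. In deltaBor and Dup-LdeltaBor the squares lie further below the circles than in the other mutants, with raw quotients of 0.827 and 0.820.

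In deltaBor and Dup-LdeltaBor a further local low point was called there with the 100 kb diamond. With diamonds that also use pairs reaching out of the domain, the 100 kb KR map had a minimum at 111320001 in deltaBor, at -0.52, and in Dup-LdeltaBor, at -0.64. In the 4 libraries that keep the boundary these KR diamonds gave no minimum inside the domain besides the 2 described. There the score fell on toward the boundary, so that the end of the domain was lower without a minimum of its own. At 111340001 it was -0.44 in deltaBor, -0.56 in Dup-LdeltaBor and -0.88 in WT, and at 111380001 it was -0.18, -0.31 and -1.51. A 200 kb diamond gave no minimum at this place in deltaBor or Dup-LdeltaBor, with raw or KR values. With raw counts the extra minimum lay at 111300001, with -0.99 in deltaBor and -0.09 in Dup-LdeltaBor. It thus lay at or within 20 kb of anchor 3, inside the WT boundary.

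In Dup-S, whose duplication lies beyond the boundary, no block of the domain was past 1.5-fold in either direction, beside 8.57% higher and 0.0341% lower over the map. The median block fold was 1.11 in the domain and 1.10 over the map. The 3 highest blocks had 1.26 to 1.36, led by 110600001 to 110650000 with 111050001 to 111100000, both containing bins of low coverage. The 3 lowest, 0.896 to 0.917, all lay in or reached from the first 100 kb of the domain, and the intervals of the lowest, 0.896 (0.803 to 0.999), and of 0.911 (0.828 to 1.00) reached to or near 1. Over 276 blocks, log2 KR observed over expected in Dup-S correlated with WT at r = 0.986, the closest of the mutants. The value was 0.971 for deltaBor, 0.923 for Dup-L, 0.904 for Dup-C and 0.834 for Dup-LdeltaBor, and the blocks share bins and the same probe set, so these are descriptions.

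In Dup-L 36 blocks were higher and none lower, beside 19.5% higher and 5.03% lower over the map. With KR values 0 were higher and 2 lower. The 36 were the blocks whose 2 sides both touch the duplicated segment, and no block elsewhere passed, of 240. The telomeric stretch with itself, nearly all duplicated, had a fold of 1.91 (1.90 to 1.93). The highest blocks, at 2.07, joined 111050001 to 111100000, 111200001 to 111250000 and 111000001 to 111050000 to the last 50 kb. The unduplicated middle stretch had a fold with itself of 1.01 (1.00 to 1.01) and the centromeric stretch with itself 0.916 (0.903 to 0.929). With the telomeric stretch the centromeric stretch had 1.27 (1.26 to 1.29) and the middle stretch 1.16 (1.15 to 1.17).

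In Dup-C 78 blocks were higher and none lower, beside 24.8% higher and 1.96% lower over the map. Scaled to the library total, 51 were higher and 41 lower, and with KR values 0 were higher and 5 lower. All 66 blocks wholly inside the duplicated segment were among the 78, and 2 lay elsewhere, of 198. The telomeric stretch with itself had a fold of 2.36 (2.34 to 2.38), the middle stretch with itself, part of it duplicated, 1.24 (1.23 to 1.25), and the centromeric stretch with itself 0.939 (0.922 to 0.956). The highest blocks, 2.54 to 2.62, again involved 111250001 to 111350000. The lowest, 0.774 to 0.861, lay within 110200001 to 110450000, and their KR folds were 0.982 to 1.04.

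In Dup-LdeltaBor 40 blocks were higher than in WT and none lower, beside 36.7% higher and 9.30% lower over the map. These counts turned over with other values: 35 were higher and 49 lower after scaling to the library total, and 0 higher and 41 lower with KR values. Of the 40, 36 touch the duplicated segment with both sides. The telomeric stretch with itself had a fold of 2.61 (2.59 to 2.63), against 1.91 in Dup-L, and its KR fold was 0.779. The highest blocks, 2.91 to 2.94, involved the last 50 kb. So did 1 of the 3 lowest, 110400001 to 110450000 with 111300001 to 111350000, at 0.763 (0.721 to 0.808), even though 1 side of it is duplicated. In Dup-L the same block was not among the 3 lowest.

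Set against Dup-L, Dup-LdeltaBor had no block past 1.5-fold in the domain, beside 9.38% higher and 2.64% lower over the map. The telomeric stretch with itself had a fold of 1.36 (1.36 to 1.37), the middle stretch with itself 0.973 (0.967 to 0.978) and the middle with the telomeric stretch 1.01 (1.01 to 1.02). The median ratio of the duplicated bins to the outside was also higher, at 2.48 in Dup-LdeltaBor and 1.78 in Dup-L, and its part in these folds was not tested. The highest blocks, 1.43 to 1.44, lay in the telomeric stretch. The lowest were 110200001 to 110250000 with the last 50 kb at 0.781 (0.711 to 0.858), 110400001 to 110450000 with the last 50 kb at 0.787 (0.743 to 0.834), and 110200001 to 110250000 with 110600001 to 110650000 at 0.834 (0.719 to 0.966).

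With KR values, contacts of the middle with the telomeric stretch had folds over WT of 0.878 in deltaBor, 0.670 in Dup-LdeltaBor, 0.799 in Dup-L, 1.00 in Dup-S and 0.789 in Dup-C. Balancing fixes each bin's sum over the whole map, so values within the domain also move with what its bins gain outside it, and that part was not tested. The direction of the fold of the whole domain depended on the scaling. It was 1.03 in deltaBor, 1.32 in Dup-LdeltaBor, 1.21 in Dup-L, 1.10 in Dup-S and 1.48 in Dup-C on contacts outside the widest duplication. Scaled to the library total it was 0.929, 0.921, 0.974, 0.976 and 1.01 in that order, and no direction is given for the domain as a whole.

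The authors' deposited difference map labelled d1-3 against WT was taken here to be that of deltaBor, which its label does not state. In it 26.7% of the pairs joining the middle to the telomeric stretch were above 0, against 45.5% over the whole map. In the authors' log2 ratio map labelled WT against delBOR, 71.0% of the same pairs were above 0, against 52.1% over the whole map. The authors' deposited map of Dup-L minus WT had 98.8% of pairs above 0 inside the telomeric stretch and 46.9% inside the middle stretch. The authors' deposited map of Dup-C minus WT had 100% and 43.6% for the same stretches. In the authors' deposited map of Dup-S minus WT, 59.1% of the domain's pairs were above 0, against 51.6% over the whole map.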

How the data were processed

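Capture Hi-C of limb buds at E12.5 was analysed in 6 libraries, 1 for each genotype: deltaBor, Dup-LdeltaBor, Dup-L, Dup-S, Dup-C and WT. Per the submitters' processing notes, the aligner was Bowtie2 2.2.6 and the build mm9. File names mark a mapping quality of 30 and 10 kb bins. Filters on read pairs, removal of duplicates and the balancing tool were not given in the sources used here. For each library the authors deposited raw contact counts per pair of bins and a signal map after KR balancing. They also deposited comparison maps, 2 with log2 ratios and 5 with differences (score values) computed by the authors after a scaling that the sources used here do not describe. Positions of the Dup-C and Dup-S maps are offsets and were placed on the bins of the other maps.

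Raw counts were the main values and KR values the first alternative. Pairs under 2 bins apart were left out. The deepest library, Dup-LdeltaBor, held 8965219 contacts and the shallowest, Dup-C, 4144258. Folds were scaled on contacts that lay to 1 side of the Dup-C segment with neither bin in it, and the error of that factor is not in the intervals. Altered segments were found by circular binary segmentation of bin sums over WT (pseudocount 0.5). Blocks needed 50 contacts in both libraries, and focal contacts 50 contacts and 50 kb. Named bins were the ends and minima in WT, the 5 highest focal scores in WT, the bins with the highest and lowest mean, and the 3 highest and 3 lowest blocks of each comparison; the anchor bins, the last 50 kb and the minimum beside it were named after their values were seen. The members, lists and measures were chosen with earlier results of these data known. The ratios for single minima, the last 50 kb and diamonds reaching out of the domain were added after seeing the data. Procedures were tested on simulated data. Python 3.11.15, numpy 2.4.6, scipy 1.17.1 and matplotlib 3.10.9 were used. Each fold rests on 1 library a side, so p-values and a replicate error could not be had.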

Additional observations from a re-analysis of the deposited data

How the results depend on the processing

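No paired analysis was possible because each genotype has 1 library. The deepest bin with KR values was 110390001 in every library but Dup-LdeltaBor, where it was 110950001. A 200 kb diamond cannot be scored before 110400001 within the domain, so its lowest raw bin there, 110400001, says nothing about the place. With 200 kb diamonds reaching out of the domain the raw minimum lay at 110350001 in deltaBor and Dup-LdeltaBor. KR values gave 2 minima in each library, and a 200 kb diamond 1. In raw counts (100 kb diamond) a prominence of 0.1 log2 gave 11 in deltaBor and 9 in Dup-S, Dup-C and WT. It gave 8 in Dup-LdeltaBor and 7 in Dup-L. With KR values that prominence gave 3 in deltaBor, Dup-S, Dup-L and Dup-C, and 2 in Dup-LdeltaBor and WT. The pooled step ratio with KR values was 0.876 in deltaBor, 0.633 in Dup-LdeltaBor, 0.729 in Dup-L, 0.937 in Dup-S, 0.852 in Dup-C and 0.940 in WT. Without low-coverage bins it was, in that order, 0.860, 0.933, 0.939, 0.933, 1.17 and 0.902. With the step placed by the 200 kb diamond it was 0.863 in deltaBor, 0.893 in Dup-LdeltaBor, 0.918 in Dup-L, 0.929 in Dup-S and 0.897 in WT, and at 10 or more bins apart it was 0.899 in Dup-LdeltaBor.

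KR slopes at 20 to 200 kb were -0.87 in deltaBor, -0.83 in Dup-LdeltaBor, -0.82 in Dup-L, -0.81 in Dup-S and -0.86 in Dup-C, and -0.80 in Dup-LdeltaBor without low-coverage bins. At 200 to 1000 kb KR slopes were -0.34, -0.50, -0.40, -0.28, -0.39 and -0.30 in deltaBor, Dup-LdeltaBor, Dup-L, Dup-S, Dup-C and WT. Without low-coverage bins they were, in that order, -0.38, -0.46, -0.37, -0.34, -0.53 and -0.34. In Dup-C 3 of the focal contacts were shared with KR values.

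The domain fold over WT with KR values was 0.957 in deltaBor, 0.878 in Dup-LdeltaBor, 0.938 in Dup-L, 1.00 in Dup-S and 0.922 in Dup-C, and 0.937 for Dup-LdeltaBor over Dup-L. Scaled to the library total it was 0.929, 0.921, 0.974, 0.976 and 1.01 in that order, and 0.945 over Dup-L. Scaled without bins of the domain it was 1.31 in Dup-LdeltaBor, 1.11 in Dup-S and 1.48 in Dup-C, and 1.08 over Dup-L. With KR values 0 blocks were higher than in WT in Dup-LdeltaBor, Dup-L and Dup-C, and 1 was lower in deltaBor, 41 in Dup-LdeltaBor, 5 in Dup-C, 2 in Dup-L and, with Dup-LdeltaBor set against Dup-L, 1. Scaled to the library total, 1 was lower in deltaBor, 41 in Dup-C and 49 in Dup-LdeltaBor, and 51 were higher in Dup-C. Blocks of 100 kb gave 15 higher in Dup-C and 9 each in Dup-L and Dup-LdeltaBor, of 66. The cause of these changes was not tested. The lowest block fold with KR values in deltaBor was 0.648, for 110600001 to 110650000 with 111200001 to 111250000, which holds bins of low coverage, and the anchor contacts rest on 694 to 2184 counts each.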
